A study of Mus musculus with 16 samples.

Results

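The clustered protocadherins are a family of cell-surface adhesion proteins encoded by tandem arrays of genes, called the alpha, beta and gamma clusters. Members were all genes of the deposited table whose symbol starts with Pcdha, Pcdhb or Pcdhg, which gave 59 of 24015 rows: 15 alpha, 22 beta and 22 gamma genes. A member was tested where it reached 10 normalized counts in at least 6 of the 12 samples, and 19 of the 59 did. The RNA came from microglia, the immune cells that live in brain tissue, sorted as live CD11b+ CD45lo cells from the hippocampus of mice aged 3 months (6 samples, called young here) or 20 months (6 samples, called aged here). The strain label was C57BL/6 for all young samples and for aged samples 1 to 4, and C57BL/7, C57BL/8 or C57BL/9 for the libraries of aged samples 5 and 6, which may be an entry error and was not settled. The labels name no treatment and no allele, and leave unsaid whether 1 mouse or several gave a sample, so a p-value here weighs only the spread between these samples.

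Clustered protocadherins are best known from neurons. Each neuron transcribes a small, largely random choice of them, the proteins of one cell bind the identical set on another, and this matching lets a neuron tell its own branches from those of other cells. In the alpha and gamma clusters each gene has its own promoter and a large first exon for the extracellular part, which is spliced to constant exons shared by the whole cluster. Beta genes stand alone, with no shared exons. Promoters are chosen by looping of the DNA to distant enhancers, held by CTCF and cohesin, and promoters that are not chosen are kept silent by DNA methylation.

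In genome build mm10 (RefSeq table of GRCm38.p6), all 3 clusters lie on chromosome 18, the alpha cluster at chr18:36930285-37187663, the beta cluster at chr18:37264998-37521419 and the gamma cluster at chr18:37661775-37841873. Positions were found for 58 of the 59 members. The remaining one, Pcdha4-g, was listed at 0 in all 12 samples. The gamma genes share 3 coding exons of 59, 89 and 224 coding bases. The large coding exon that belongs to each single gene was 2364 to 2439 bases long in the 19 members that were tested. Levels per kb given below are the whole count of a gene divided by this length. They may hold reads from outside this exon, because how reads in shared exons were counted is not known.

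The shallowest sample, young 1, had 11.4 M reads, and the 7 others made from a single library had 23.4 to 47.3 M. For the 4 made from 2 libraries each, an estimate gave 52.1 to 58.2 M. All 10 microglia markers looked at were well expressed, and their summed level was 1765200 to 2021750 normalized counts in young and 1601990 to 1811220 in aged samples. Of the 10, 7 had a lower mean at 20 months and 3 a higher one, with a median log2 fold change of -0.11. In limma, 4 had an unadjusted p under 0.05, where 10.8% of all tested genes did. After adjustment 1 of them fell, where 0.458% of all tested genes fell. This was Fcrls, an Fc receptor-like protein of microglia, from 123873 ± 5703 to 89490 ± 6869 normalized counts (SD, n = 6 each; limma adjusted p 3.8e-04).

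The 3 clusters differed in how much of them was found in these cells. None of the 15 alpha genes, 1 of the 22 beta genes (Pcdhb22) and 18 of the 22 gamma genes passed the level filter. The summed level of the alpha genes was 1.63 ± 2.54 normalized counts (SD, n = 6) at 3 months and 1.85 ± 2.56 at 20 months, and the highest value of any single alpha gene in any sample was 4.51. The beta sum was 171 ± 30.7 at 3 months and 270 ± 45.0 at 20 months. The gamma sum was 2637 ± 324 and 3404 ± 468. All 22 gamma genes had reads in at least 1 sample, whereas 9 alpha and 6 beta genes were at 0 in all 12. A level of 0 is a limit of depth: 3 reads corresponded to 1.70 normalized counts in young sample 5, the deepest sample with 1 library, and to 7.37 in young sample 1, the shallowest, counting error only.

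**Figure D1:**
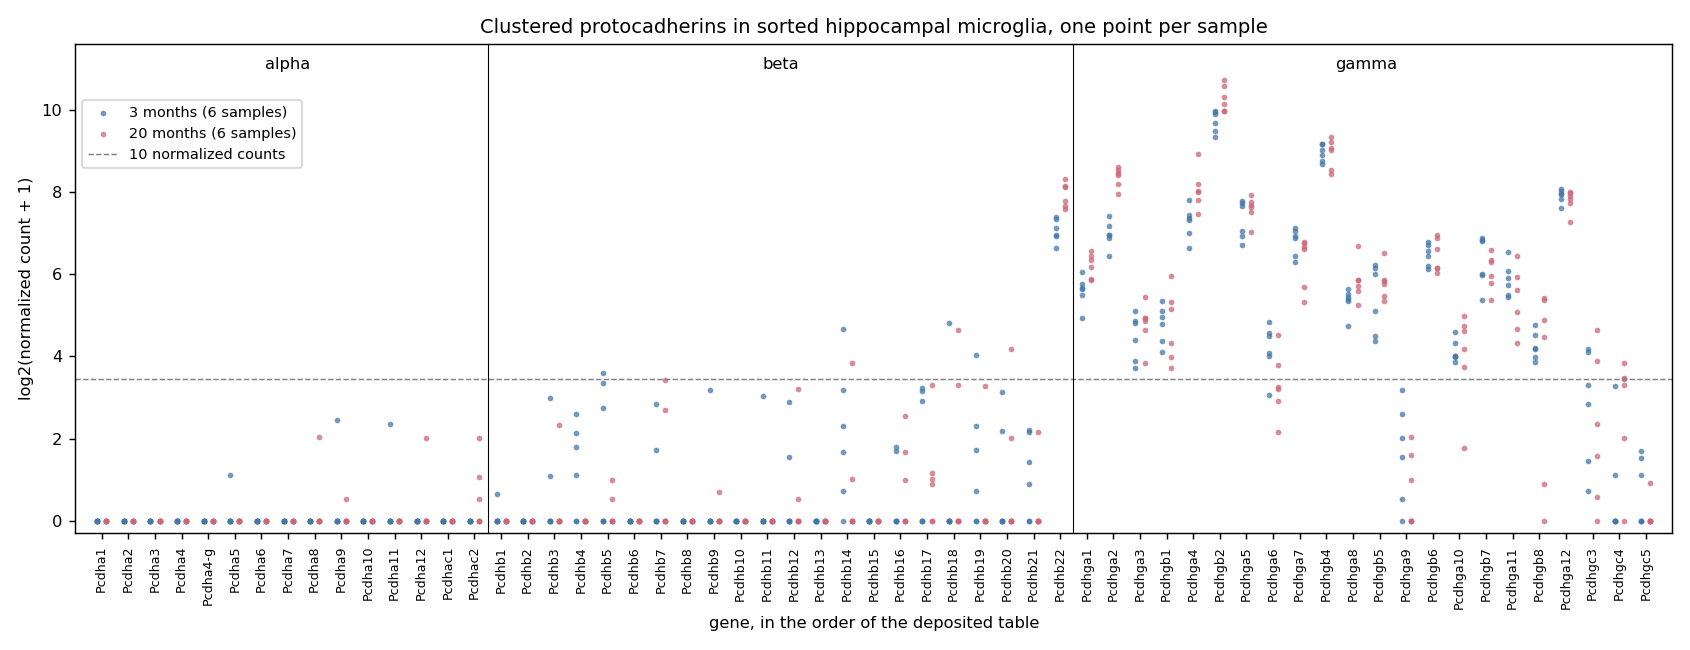
Levels of the 59 clustered protocadherins as log2(normalized count + 1) on the vertical axis, in the order of the deposited table on the horizontal axis, with 1 point per sample (blue, 3 months, n = 6; red, 20 months, n = 6) and a dashed line at 10 normalized counts. The alpha genes and all beta genes but Pcdhb22 lie mostly at or near 0, while 18 of the 22 gamma genes passed the filter.

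Between the ages, 2 of the 19 tested members rose and none fell. Pcdhga2, the second gene of the gamma cluster, was 2.62-fold higher at 20 months, and Pcdhb22, the last gene of the beta cluster, was 1.82-fold higher. Both encode single-pass adhesion proteins of the family. Across all 11579 genes tested by limma with Benjamini-Hochberg adjustment, 147 (1.27%) were higher and 53 (0.458%) lower at 20 months. At an unadjusted p under 0.05, 5 of the 19 members passed (Pcdhb22, Pcdhga1, Pcdhga2, Pcdhga4 and Pcdhgb2), all with higher means at 20 months, against 1253 of all tested genes (10.8%, either direction). The log2 fold change was above 0 in 9 members and below 0 in 10, with a median of -0.0052 and a range from -0.86 to 1.39, and the median over all tested genes was 0.0016. It compares means of log2 values. Of the 10 below 0, Pcdhgb1, Pcdhgb4, Pcdhgb6, Pcdhga10 and Pcdhgb8 had higher mean normalized counts at 20 months, and the others lower ones.

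Pcdhga2 (chr18:37668927-37841870) was at 85.9, 143, 117, 124, 123 and 169 normalized counts in young samples 1 to 6, and at 339, 370, 354, 248, 388 and 291 in aged samples 1 to 6. Every aged sample lay above every young one. The mean went from 127 ± 27.7 to 332 ± 52.5 (SD, n = 6 each), a log2 fold change of 1.39 ± 0.16 (SE) with a limma adjusted p of 8.7e-05. In the 8 samples with 1 library these values rest on 35 to 392 reads. No exon of another gene in GENCODE M21 overlaps its own coding exon.

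Pcdhb22 (chr18:37518353-37521419) was at 162, 167, 124, 122, 98.4 and 139 normalized counts in young samples 1 to 6, and at 319, 218, 202, 277, 281 and 191 in aged samples 1 to 6. Here too the ages did not overlap. The mean went from 135 ± 26.0 to 248 ± 51.5 (SD, n = 6 each), a log2 fold change of 0.87 ± 0.17 (SE) with a limma adjusted p of 0.011. These values rest on 66 to 369 reads in the 8 samples with 1 library. An exon of Pcdhb21 on the same strand overlaps its coding exon, and how the authors assigned reads in such an overlap is not given in the sources used here. Pcdhb21 was under 10 normalized counts in all 12 samples. Pcdhga2 and Pcdhb22 were the 2 members whose ages did not overlap with the aged samples above, against 134 of all tested genes (1.16%).

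Pcdhgb2 had the highest level of the family at both ages. It was at 710, 984, 1009, 646, 819 and 951 normalized counts in young samples 1 to 6, and at 1277, 1678, 998, 1004, 1519 and 1127 in aged samples 1 to 6. All 6 aged samples were above the young median and 4 were above the highest young sample, while aged samples 3 and 4 lay just under it. The mean was 853 ± 152 at 3 months and 1267 ± 281 at 20 months, a log2 fold change of 0.56 ± 0.14 (SE) that missed the threshold at a limma adjusted p of 0.060. It passed in limma when young sample 3, its highest young value, was left out (0.048). The same held without aged sample 3 or aged sample 4, its lowest aged values (0.0498 and 0.047). Of the 24 alternative fits described below, 4 called it, with adjusted p from 0.010 to 0.146 over limma, edgeR and DESeq2. The log2 fold change ranged from 0.48 to 0.65.

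Pcdhga4, which lies just before Pcdhgb2, was at 223, 163, 172, 98.0, 127 and 158 normalized counts in young samples 1 to 6, and at 486, 223, 253, 258, 293 and 176 in aged samples 1 to 6. Aged sample 1 stood well above the rest, and aged sample 2 was level with the highest young sample. The mean was 157 ± 42.5 at 3 months and 282 ± 107 at 20 months, a log2 fold change of 0.81 ± 0.22 (SE) with a limma adjusted p of 0.086. Without aged sample 6, its lowest aged value, the limma adjusted p was 0.037. Without aged sample 1 the log2 fold change was 0.64 with a limma adjusted p of 0.175. Of the 24 alternative fits, 2 called it, with adjusted p from 0.031 to 0.208 over limma, edgeR and DESeq2.

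Of the remaining high members, Pcdhgb4 was at 427, 476, 569, 407, 518 and 574 normalized counts in young samples 1 to 6, and at 520, 541, 645, 368, 592 and 348 in aged samples 1 to 6. Aged samples 4 and 6 were the lowest of all 12, and the others lay within or above the young range. Its means were 495 ± 70.5 and 502 ± 120, a log2 fold change of -0.01 ± 0.15 (SE, limma adjusted p 0.995). Pcdhga12, the last gene of the A type, was at 228, 247, 245, 266, 195 and 261 in young samples 1 to 6, and at 154, 227, 253, 252, 210 and 238 in aged samples 1 to 6. No aged sample exceeded the highest young one, and aged sample 1 was the lowest of all. Its means were 241 ± 26.0 and 223 ± 37.3, a log2 fold change of -0.12 ± 0.14 (SE, limma adjusted p 0.860).

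**Figure D2:**
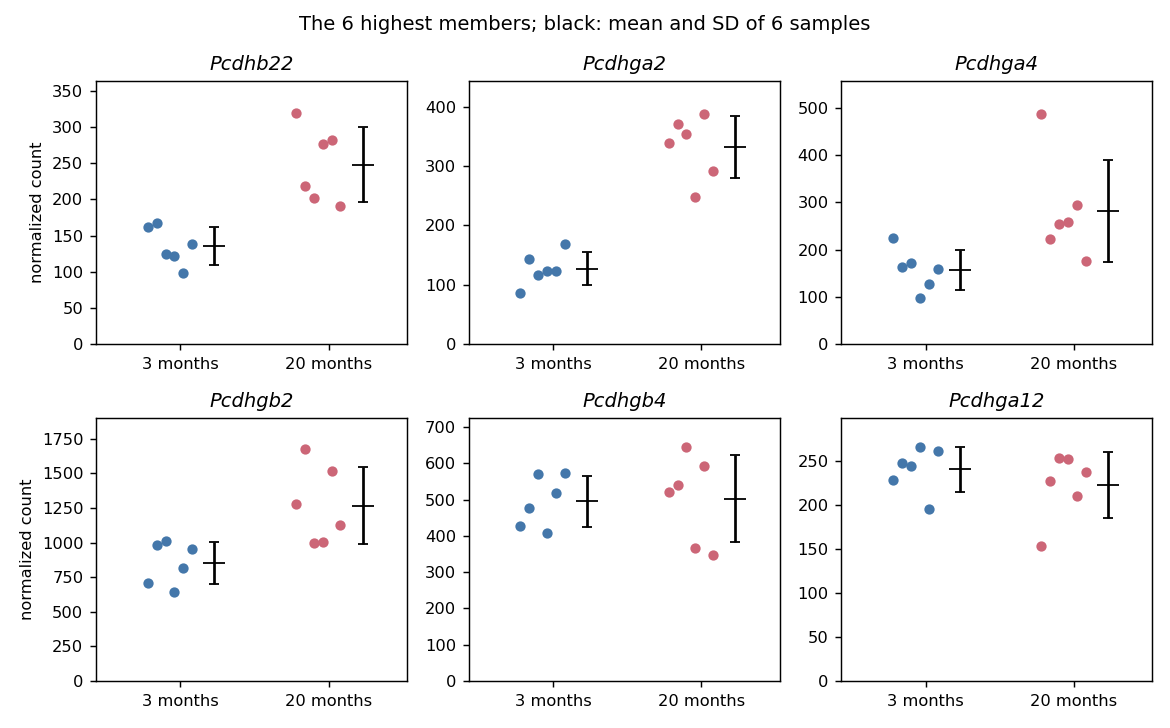
Normalized counts (vertical axes, starting at 0) of the 6 members with the highest mean, 1 point per sample in sample order from left to right (blue, 3 months, n = 6; red, 20 months, n = 6), with the mean and SD in black. The ages do not overlap for Pcdhb22 and Pcdhga2, overlap partly for Pcdhga4 and Pcdhgb2, and overlap fully or nearly so for Pcdhgb4 and Pcdhga12.

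Per kb of own coding exon, the mean level over the 12 samples was 440 normalized counts for Pcdhgb2 and 211 for Pcdhgb4. It was 95.5 for Pcdhga12, 94.7 for Pcdhga2, 90.7 for Pcdhga4, 80.4 for Pcdhb22 and 74.5 for Pcdhga5. The order at the top was the same at both ages, with Pcdhgb2 at rank 1 and Pcdhgb4 at rank 2. Below these, Pcdhga2 stood at rank 7 in young and rank 3 in aged samples, while Pcdhga12 stood at rank 3 and rank 6. Among all tested genes the mean normalized count of Pcdhgb2, not scaled to length, was at a middling level, above that of 62.3% of them. Pcdhgb4 was above 42.7%, and the other members lay lower. Pcdhga12, Pcdhga2, Pcdhga4, Pcdhb22 and Pcdhga5 were above 27.9%, 27.7%, 27.1%, 25.0% and 24.3%. Pcdhga6, the lowest tested member, was above 2.31%.

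None of the other 13 tested gamma genes was called. In the first part of the gamma cluster, Pcdhga1 was at 48.4 ± 11.7 at 3 months and 74.6 ± 15.1 at 20 months (SD, n = 6 each), a log2 fold change of 0.63 ± 0.22 (SE) with a limma adjusted p of 0.249. All 6 aged samples were above its young median and 4 were above its highest young sample. Pcdhga3 was at 22.5 ± 8.40 and 28.0 ± 9.56 (0.31 ± 0.34, adjusted p 0.855), and Pcdhgb1 at 27.7 ± 8.73 and 30.1 ± 18.7 (-0.04 ± 0.39, 0.985). Pcdhga5 was at 165 ± 51.9 and 196 ± 38.5 (0.28 ± 0.21, 0.746). Pcdhga6 and Pcdhga7 had lower means at 20 months without passing the test. Pcdhga6 was at 18.4 ± 7.18 and 10.3 ± 6.55 (-0.86 ± 0.45, 0.536), and Pcdhga7 at 112 ± 24.6 and 83.7 ± 30.6 (-0.49 ± 0.26, 0.559), with all 6 aged samples under the young median. Pcdhga8 was at 40.5 ± 8.05 and 58.8 ± 22.5 (0.48 ± 0.26, 0.545).

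In the second part of the cluster the lowest adjusted p in limma was 0.678. Pcdhgb5 was at 46.8 ± 24.7 at 3 months and 56.7 ± 17.8 at 20 months, a log2 fold change of 0.41 ± 0.34 (SE) with a limma adjusted p of 0.792. Pcdhgb6 was at 89.3 ± 16.5 and 90.3 ± 25.5 (-0.01 ± 0.21, 0.992), and Pcdhga10 at 16.8 ± 3.69 and 18.7 ± 10.3 (-0.12 ± 0.48, 0.963). Pcdhgb6 was level between the ages within its spread. Pcdhga10 spread more widely at 20 months (2.39 to 30.7) than at 3 months (13.6 to 23.3), and its log2 fold change has the opposite sign to its means. Pcdhgb7 was at 84.3 ± 32.8 and 68.5 ± 20.1 (-0.25 ± 0.28, 0.860), and Pcdhga11 at 59.5 ± 18.6 and 45.2 ± 25.3 (-0.52 ± 0.33, 0.678). Pcdhgb8, which GENCODE lists as a polymorphic pseudogene, was at 18.4 ± 4.66 and 22.2 ± 18.5. Its log2 fold change of -0.74 ± 0.82 (adjusted p 0.858) has the opposite sign to the means, because aged sample 4 was at 0 and aged sample 1 at 0.865. It was -0.04 without aged sample 4 and -0.22 without aged sample 1, and ranged from -1.50 to -0.04 over all alternatives, none of which called the gene.

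Positions were compared for the 5 members with an unadjusted p under 0.05. Pcdhb22 ends the beta cluster and starts 143 kb before Pcdhga1, farther than the 104 kb from Pcdhga1 to Pcdhga12. Pcdhga1, Pcdhga2, Pcdhga4 and Pcdhgb2 are among the first genes of the gamma cluster, which holds 18 of the 19 tested members. Pcdhga3 and Pcdhgb1 lie among them, at limma adjusted p of 0.855 and 0.985. Over the 18 tested gamma genes, the distance of the gene start from that of Pcdhga1 and the log2 fold change had a Pearson r of -0.63 and a Spearman rho of -0.66, and without Pcdhga2 the values were -0.57 and -0.60 (n = 17). These are descriptions of a pattern seen in the data, over genes that share the same libraries and 3 exons, and carry no test. Of the first 11 gamma genes, Pcdhga1 to Pcdhga8, 7 had a log2 fold change above 0 and 4 below, with a median of 0.31. Of the 7 tested among the last 11, Pcdhgb5 to Pcdhgc5, 1 was above 0 and 6 below, with a median of -0.12. Of these 6, Pcdhgb6 (89.3 and 90.3), Pcdhga10 (16.8 and 18.7) and Pcdhgb8 (18.4 and 22.2) had higher mean normalized counts at 20 months. The correlations and medians include Pcdhgb8, with aged samples 1 and 4 at 0.865 and 0, and were not computed without it.

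**Figure D3:**
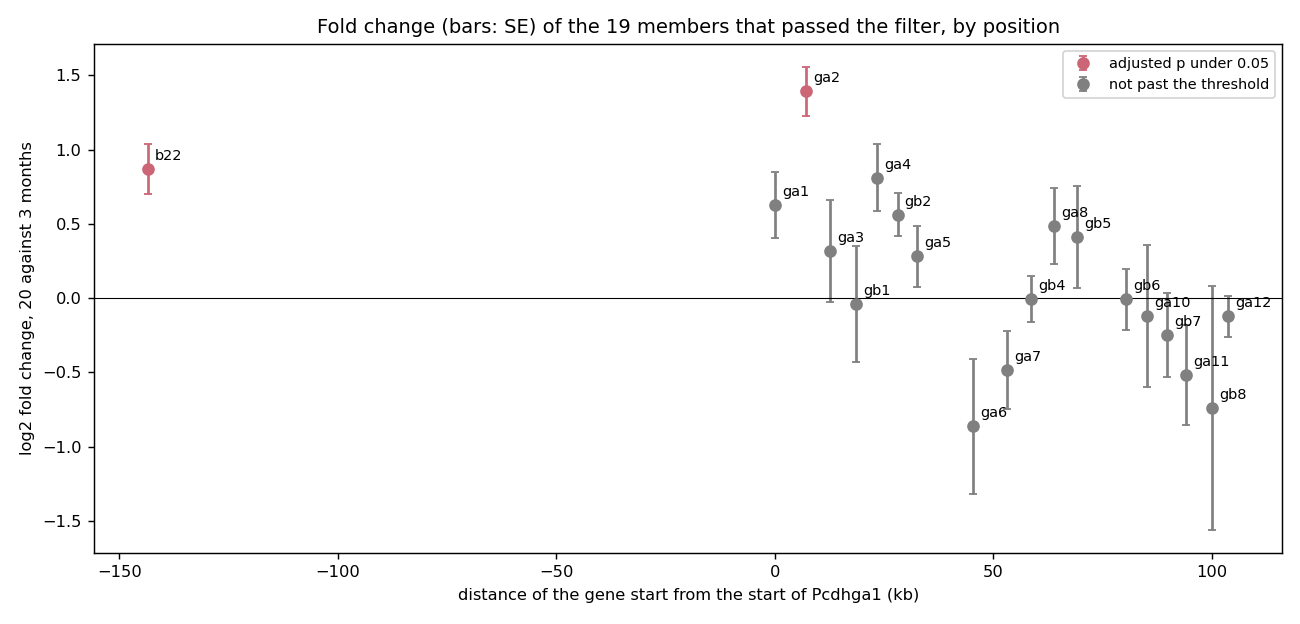
Log2 fold change at 20 against 3 months (vertical axis; bars are SE) of the 19 tested members against the distance of the gene start from that of Pcdhga1 in kb (horizontal axis), with the 2 members past the threshold in red and the others in grey. Pcdhb22, 143 kb before Pcdhga1, and Pcdhga2 are the 2 past the threshold, and the genes at the far end of the gamma cluster lie near or under 0.

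Summed over genes, the first 11 gamma genes were at 2067 ± 313 normalized counts at 3 months and 2864 ± 453 at 20 months (SD, n = 6 each), a ratio of means of 1.39. Most of this rise came from Pcdhgb2 (means of 853 and 1267), Pcdhga2 (127 and 332) and Pcdhga4 (157 and 282), while Pcdhga6 and Pcdhga7 had lower means at 20 months. The last 11 gamma genes were at 570 ± 34.2 and 540 ± 51.3, a ratio of 0.948. The first 11 made up 78.2 ± 2.55% of the gamma sum at 3 months and 83.9 ± 2.13% at 20 months, and 5 of the 6 aged samples were above the highest young one. Pcdhga2 alone made up 4.82 ± 0.896% and 9.73 ± 0.706%, with no overlap of the ages. Pcdhgb2 made up 32.2 ± 2.50% and 37.1 ± 4.92%, Pcdhgb4 18.8 ± 0.894% and 14.7 ± 2.50%, and Pcdhga12 9.27 ± 1.78% and 6.72 ± 1.83%. In the beta cluster, Pcdhb22 made up 78.9 ± 5.45% of the sum at 3 months and 91.6 ± 6.55% at 20 months, and the other 21 beta genes together were at 36.1 ± 12.2 and 21.7 ± 16.3 normalized counts. By type, the gamma A genes summed to 1011 ± 104 and 1352 ± 155, and the gamma B genes to 1615 ± 230 and 2037 ± 374. Sums and shares were given no test.

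**Figure D4:**
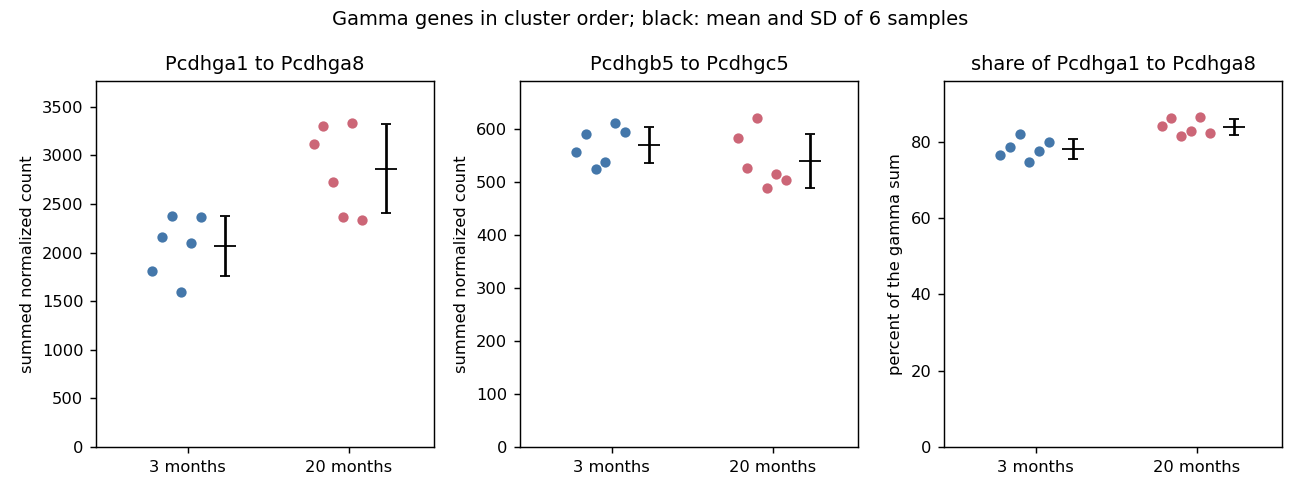
Summed normalized counts of the first 11 gamma genes (left) and the last 11 (middle), and the percent of the gamma sum that the first 11 made up (right), 1 point per sample (blue, 3 months, n = 6; red, 20 months, n = 6), with the mean and SD in black and all axes starting at 0. The first 11 go from a mean of 2067 to 2864 and the last 11 from 570 to 540.

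Of the 40 members that failed the filter, 15 were at 0 in all 12 samples and 25 had reads in at least 1. The C-type gamma genes, which neurons transcribe without the random choice made for the A and B types, all failed: 11 of the 12 A genes and 7 of the 7 B genes passed, against 0 of the 3 C genes. Pcdhgc3 came nearest to the filter, reaching 10 normalized counts in 4 samples with a highest value of 24.1. Pcdhgc4 reached it in 2 samples (highest 13.4), Pcdhb14 in 2 (24.6), Pcdhb18 in 2 (27.0), and Pcdhb5, Pcdhb19 and Pcdhb20 in 1 each (11.1, 15.3 and 17.2). Pcdhga9, the A gene that failed, never exceeded 8.09. Just inside the filter were Pcdhga6, which reached 10 in 7 samples, Pcdhgb8 in 10 and Pcdhga10 in 11. In a limma fit without the filter, over 16846 rows, none of the 25 failing members with reads was called. The 2 lowest adjusted p in this limma fit went with opposite directions. They were 0.259 for Pcdhb4 (log2 fold change -1.27, listed at 0 in all aged samples) and 0.338 for Pcdhgc4 (1.95).

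How the gamma genes' shared exons were counted is not given in the sources used here. Pcdhgc5 was at 0 in 8 of the 12 samples while Pcdhgb2 was never under 646, so reads in the shared exons were not added in full to every gamma gene. Members are similar in sequence, and how reads that match several of them were treated is not stated, so the split of reads between close relatives is uncertain. The libraries do not mark the strand, and exons of other genes on the opposite strand lie over the own exon of 7 of the tested members (Pcdhga1, Pcdhga7, Pcdhga8, Pcdhga10, Pcdhgb7, Pcdhga11 and Pcdhga12). An exon of another gene on the same strand lies over that of Pcdhb22, Pcdhga4 and Pcdhga8.

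No gene next to the clusters was called. From Zmat2 to Hdac3, which flank the region, 8 genes that are no members are in the table, and 4 were tested, with 0 called and 0 at an unadjusted p under 0.05. Taf7, a subunit of the general transcription factor TFIID whose gene lies between the beta and gamma clusters, was at 697 ± 41.5 normalized counts at 3 months and 663 ± 57.6 at 20 months (SD, n = 6 each; limma adjusted p 0.865). Hdac3, a histone deacetylase, was at 1335 ± 126 and 1379 ± 132 (0.920), Zmat2, a splicing factor, at 601 ± 48.3 and 576 ± 104 (0.902), and Diap1, listed by RefSeq as Diaph1, at 63.4 ± 16.2 and 63.2 ± 24.1 (0.973). This choice of neighbours was made after the values of the clusters had been seen.

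Genes known to act on or with the family were read from the same fit. Of 12 non-clustered protocadherins, which lie singly elsewhere in the genome, none reached the filter. The 2 with the highest means were Pcdh20 (1.03 ± 2.51 normalized counts at 3 months and 1.37 ± 2.45 at 20 months) and Pcdh9 (2.38 ± 4.07, and listed at 0 in all aged samples). The cohesin and CTCF list, the factors that form the loops at the clusters, had 11 tested genes, of which 0 were called in either direction and 0 had an unadjusted p under 0.05, with a median log2 fold change of 0.05. Its highest members were Mau2, a cohesin loader subunit (3753 ± 378 and 4077 ± 542), and Stag2, a cohesin subunit (3118 ± 453 and 3208 ± 546). The list for methylation and silencing had 13 tested, 0 called and 0 at an unadjusted p under 0.05, with a median of -0.04. Its highest members were the corepressor Trim28 (3443 ± 560 and 3312 ± 528) and the histone methyltransferase Setdb1 (2306 ± 189 and 2332 ± 251).

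The proteases that cut protocadherins at the membrane, the ADAM10 sheddase and gamma-secretase, had 8 tested genes, 0 called and 0 at an unadjusted p under 0.05, with a median of -0.04. Adam10 was at 16865 ± 2062 and 16342 ± 2836 normalized counts, and Ncstn, the nicastrin subunit of gamma-secretase, at 14021 ± 1030 and 13939 ± 1183. Among the cytoplasmic partners, 13 were tested, 0 rose and 1 fell, where 0.458% of all tested genes fell. An unadjusted p under 0.05 was found for 2 (Fyn and Ptk2), against 10.8% of all tested genes. The median of this list was -0.0036. Fyn, a Src-family tyrosine kinase, went from 718 ± 106 to 451 ± 97.9, a log2 fold change of -0.68 with a limma adjusted p of 0.016. The highest members of this list were Cyfip1, a subunit of the WAVE actin regulator (47110 ± 4957 and 47147 ± 6656), and Marcks, an actin-binding kinase substrate (45438 ± 1701 and 42762 ± 4373). Ptk2, the focal adhesion kinase that gamma protocadherins bind, was at 129 ± 34.3 and 202 ± 66.3 (adjusted p 0.304).

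Markers of other cells were looked at because neurons and astrocytes also transcribe the clusters, and in bulk samples fewer cells of a type cannot be told apart from less RNA per cell. The 14 neuron markers summed to 123 to 275 normalized counts in young and 222 to 368 in aged samples, and 5 of the 14 had a higher mean at 20 months, 8 a lower one and 1, Nefm, was at 0 in all 12 samples. Of these 14, 4 were tested, 2 with a log2 fold change above 0. Syp, a synaptic vesicle protein, was the 1 called, where 1.27% of all tested genes were higher (44.5 ± 10.9 and 113 ± 39.1, limma adjusted p 0.0083). The RNA-binding protein gene Celf4 was at 85.1 ± 22.6 and 114 ± 15.4 (0.395). Both had an unadjusted p under 0.05, where 10.8% of all tested genes did, and they had the largest increases in mean of the 14. The other tested ones were Rbfox3, at 17.3 ± 6.50 and 9.94 ± 4.27 (0.603), and Snap25, at 34.4 ± 26.7 and 18.6 ± 12.8 (0.793). Among those below the filter, Map2 was at 2.04 ± 2.74 and 6.15 ± 12.2, and Slc17a7 at 4.83 ± 3.75 and 7.13 ± 6.54. Lower means at 20 months were found for Tubb3 (3.07 ± 3.19 and 1.73 ± 3.17), Stmn2 (5.18 ± 3.25 and 0.597 ± 0.490) and Nefl (7.62 ± 6.11 and 3.60 ± 3.98). The same held for Syt1 (5.63 ± 6.75 and 5.04 ± 9.24) and Elavl3 (2.10 ± 3.27 and 0.327 ± 0.512). Of the 14, 5 stayed under 10 in all samples.

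The 8 astrocyte markers summed to 5482 to 7020 normalized counts in young and 5610 to 7608 in aged samples, mostly from Slc1a3. Of the 8, 6 had a higher mean at 20 months and 2, Aqp4 and Gjb6, a lower one. In all 4 tested ones the log2 fold change was positive (median 0.57). After adjustment 1 was called, where 1.27% of all tested genes were higher: Aldh1l1 rose from 19.4 ± 8.37 to 57.2 ± 26.5 (limma adjusted p 0.041). Gfap was at 20.9 ± 7.12 and 42.8 ± 33.9 (0.555) and Aldoc at 48.8 ± 14.0 and 73.0 ± 52.4 (0.823). Below the filter, Slc1a2 was at 7.12 ± 4.71 and 15.9 ± 14.4, and Aqp4 at 5.65 ± 3.73 and 2.32 ± 3.02.

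The 7 markers of choroid plexus and ependyma summed to 264 to 1281 normalized counts in young and 437 to 3506 in aged samples. Of the 7, 5 had a higher mean at 20 months and 2, Foxj1 and Ccdc153, a lower one. In all 4 tested ones the log2 fold change was positive (median 1.21), and 0 were called. At an unadjusted p under 0.05 were 2 (Ttr and Enpp2), against 10.8% of all tested genes. The 8 markers of border macrophages and monocytes summed to 286 to 481 and 278 to 736. Of these 8, 7 had a higher mean at 20 months and 1, Mrc1, a lower one. Of 6 tested, 5 were above 0, with a median of 0.64, and 0 were called. At an unadjusted p under 0.05 were 3, against 10.8% of all tested genes. The 3 were F13a1 (33.2 ± 28.4 and 97.7 ± 56.0, limma adjusted p 0.172), Cd163 (12.6 ± 14.6 and 43.2 ± 30.0, 0.438) and Ccr2 (65.6 ± 19.6 and 99.4 ± 26.9, 0.390). No marker of oligodendrocyte precursors reached the filter, but their summed level was 6.02 ± 5.67 at 3 months and 32.1 ± 32.3 at 20 months, almost all of the latter from Cspg4, a proteoglycan also made by pericytes (1.12 ± 2.53 and 29.5 ± 32.0, highest value 90.5). Of these 6 markers, 2 (Cspg4 and Lhfpl3) had a higher mean at 20 months. A lower one was found for 3 (Pdgfra, Vcan and C1ql1), and Neu4 was at 0 in all samples. None of the tested markers of oligodendrocytes (5), endothelial cells (3) or pericytes and fibroblasts (2) was called or had an unadjusted p under 0.05, and no lymphocyte marker reached the filter. The part of all these cells in the levels of Pcdhga2 and Pcdhb22 was not tested.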

How the data were processed

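The deposited table gives a signal, the normalized count of each gene, in 12 columns, 1 per sample (16 libraries, 4 samples with 2). Per the series' design text, SmartSeq v4 and Nextera XT libraries were processed with bcl2fastq, fastx_trimmer, STAR, samtools and DESeq2, and mm10 is named in the submitters' processing notes. For versions and annotation: not given in the sources used here. In 8 columns, of samples with 1 library, whole reads were recovered: 100% of values were whole multiples of 1 step, within 0.1 read. The table has 27 rows with date names and 2 that repeat a name.

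Genes with at least 10 normalized counts in 6 columns were compared as log2(normalized count + 1), in limma 3.58.1 (R 4.3.3), with the prior variance following mean level, two-sided and Benjamini-Hochberg adjusted over all tested genes at 0.05. Fold changes are on this scale, which understates low genes. edgeR 4.0.16 and DESeq2 1.42.0 on recovered reads, other pseudocounts, filters and scalings, and leaving out each sample were alternatives. The fit was also run on simulated data, drawn with the same relative spread between samples for every gene apart from read counting. This does not show how the fit performs on members with a wider spread. All tested members, and the called and 2 highest genes of each other list, were named. Members and lists were chosen with earlier results of these data known.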

Additional observations from a re-analysis of the deposited data

Results flagged for a closer look

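Among the 44 groups of 6 samples looked at (each age, for the 19 tested members and the 3 cluster sums), 2 had a sample set apart from the other 5 by Dixon's test, where chance gives about 1 in 20. Pcdhga8 was at 102 normalized counts in aged sample 4, against 37.1 to 57.5 in the other aged samples. Pcdhgb5 was at 89.9 in aged sample 1, against 40.0 to 57.1.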

How the results depend on the processing

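Pcdhga2 and Pcdhb22 were called higher under each of the 24 alternatives, with adjusted p from 9.2e-08 to 0.0065 and from 5.6e-05 to 0.035, and log2 fold changes from 1.29 to 1.48 and from 0.78 to 1.09. DESeq2 on the 8 samples with 1 library called 4 members higher, adding Pcdhga4 (adjusted p 0.031) and Pcdhgb2 (0.010), while leaving out single samples gave 2 to 3. In the partner list, DESeq2 called 1 gene higher (Ptk2, 0.031), and on those 8 samples limma and edgeR called 0 lower, Fyn being at 0.084 and 0.087. Of 456 values of single members, 422 kept direction and call, 6 passed the threshold and 28 changed sign, all in 4 genes with log2 fold changes near 0. Pcdhgb1 came to 0.023 with limma, 0.24 with edgeR and 0.24 with DESeq2 on the 8 samples, and to -0.28 to 0.17 leaving out single samples. Pcdhgb4 came to 0.011 with equal column totals and -0.085 to 0.093 leaving out samples. Pcdhgb6 came to 0.0070 with equal totals, 0.0040 with limma, 0.050 with edgeR and 0.051 with DESeq2, and -0.11 to 0.076 leaving out samples. Pcdhga10 came to 0.45, 0.56 and 0.57 with limma, edgeR and DESeq2, and -0.32 to 0.33 leaving out samples. Its sign changed only in fits that lacked aged sample 6, which was at 2.39 against 12.3 to 30.7 in the other aged samples. The cause of the sign changes was not tested.

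The sample numbers do not pair the ages: correlations of same-numbered samples ran from -0.12 to 0.11, and 1 of 6 young samples correlated best with its own number. With the replicate block the same 2 members were called, and over all genes 115 were higher and 30 lower, against 147 and 53 without it. Leaving out single samples gave 101 to 174 higher and 27 to 60 lower. On the 8 samples limma called 67 and 11, edgeR 76 and 15, and DESeq2 185 and 51. Depth limits the low members: in young sample 1, the shallowest, 3 reads correspond to 7.37 normalized counts.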
